A study of Mus musculus with 96 samples.

Results

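The genes described here are 10 that encode components or regulators of autophagy: Ulk1, Becn1, Atg14, Wipi1, Map1lc3a, Map1lc3b, Gabarapl1, Sqstm1, Bnip3 and Tfeb. They were taken by name from a table of raw counts for 55421 gene identifiers, and the table holds all 10. The counts came from liver mRNA of mice aged 12 to 16 weeks, in 96 libraries. In a Bmal1 line and in a Cry line, genotype (wild type, WT, or knockout, KO) was crossed with feeding (ad libitum, AL, or restricted to the night, RF). This gave 8 groups, named by line, genotype and feeding (Bmal1 WT AL, for example), in which Cry KO stands for the loss of Cry1 and Cry2 together. Each group held 12 libraries, 2 every 4 h at 6 zeitgeber times (ZT, counted in hours from lights on), and the labels divide these into 2 numbered series of 6 libraries. The labels do not tie a library to a single animal, and for the strain background and the construction of the knockout alleles the sources used here give nothing. The p-values below therefore measure the spread between libraries.

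In autophagy, cytoplasm or organelles are enclosed in a membrane and delivered to the lysosome for breakdown. The ULK1 kinase complex starts the process, a lipid kinase complex that holds BECN1 and ATG14 marks the site with phosphatidylinositol 3-phosphate, and WIPI proteins read that mark. ATG8 proteins (the LC3 and GABARAP families) are then attached to the growing membrane, where cargo receptors such as SQSTM1 and BNIP3 dock. In liver, autophagy is known to supply amino acids, glucose and lipid between meals, and TFEB is a transcription factor that drives autophagy and lysosome genes when nutrients are scarce. BMAL1 is the activator of the circadian clock and CRY1 and CRY2 are its repressors, and meals are known to act on liver genes beside the clock.

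The libraries held 1478963 to 35568856 counts (median 25422366). Levels are given in CPM, that is counts scaled to a common library size, after normalisation by the trimmed mean of M values (TMM). All 10 genes passed the filter on low counts, with at least 16 counts in every library (the minimum was that of Tfeb). Hepatocyte markers were abundant in each group. Arntl, the gene of BMAL1, lay between 9.79 and 21.3 CPM in the Bmal1 KO libraries, inside the daily span of 0.271 to 44.5 CPM in their WT, so its mRNA level alone does not mark the knockout. Cry1 lay between 5.24 and 13 CPM in the Cry KO libraries and between 5.94 and 71.9 CPM in their WT, and Cry2 between 13.1 and 32.2 and between 18.5 and 61.5 CPM, so these ranges overlapped too. The libraries of Cry KO AL fell into separate ranges by series. Summed endothelial markers ran from 73.5 to 145 CPM in its series 2 and from 376 to 424 CPM in its series 1, and summed Kupffer cell markers from 80 to 194 and from 282 to 586 CPM. Most calls that rest on that group are therefore also given without series 2. In whole liver, fewer cells of a type and less RNA per cell cannot be told apart.

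Rhythms were tested with a 24 h cosine per group in edgeR (quasi-likelihood), and p-values were adjusted by Benjamini-Hochberg across the 18326 genes that passed the filter. A gene was called rhythmic with an adjusted p under 0.05 and a fitted range from trough to peak of at least 0.5 log2. In WT liver the autophagy genes peaked mainly between the middle of the light phase and the start of the dark phase. Of the 10 genes, 6 were rhythmic in Bmal1 WT AL, 7 in Bmal1 WT RF, 3 in Cry WT AL and 7 in Cry WT RF. Of all genes tested, 7.98%, 10.7%, 5.74% and 15.8% were called in the same groups. Gabarapl1, Bnip3 and Ulk1 were rhythmic in all 4 WT groups.

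Ulk1 (chr5:110784488-110810097, minus strand) encodes the kinase that starts autophagosome formation. In Bmal1 WT AL the 2 libraries of ZT12 held 111 and 138 CPM, and those of ZT16 held 49 and 51.8 CPM. In Cry WT AL they held 131 and 152 CPM at ZT12 and 55.6 and 57.5 CPM at ZT16. Ulk1 thus dropped between ZT12 and ZT16, which were the times of its highest and lowest means in both groups. The fitted range was 1.39 log2 in Bmal1 WT AL with a peak at ZT8.3 (edgeR adjusted p = 0.000242) and 1.18 log2 in Cry WT AL with a peak at ZT9.2 (edgeR adjusted p = 0.00173). Under RF the ranges were 1.22 log2 in Bmal1 WT (edgeR adjusted p = 0.000809) and 1.36 log2 in Cry WT (edgeR adjusted p = 0.000112).

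Becn1 (chr11:101285952-101302286, minus strand), a subunit of the lipid kinase complex, kept a narrow daily span. Its fitted range lay between 0.24 and 0.36 log2 in the WT groups, below the minimum for a rhythm call, and its only adjusted p under 0.05 was 0.0145 in Cry WT RF (edgeR). Atg14 (chr14:47540893-47570649, minus strand), which directs that complex to autophagosomes, was rhythmic in 3 of the 4 WT groups. In Bmal1 WT AL its level rose from a mean of 10.9 CPM at ZT16 to 26.1 CPM at ZT12, with a fitted range of 1.12 log2 and a peak at ZT8.5 (edgeR adjusted p = 0.00147). Wipi1 (chr11:109573331-109611967, minus strand), a reader of phosphatidylinositol 3-phosphate, was rhythmic in both WT groups under RF and in neither under AL. Its fitted range was 1.30 log2 in Cry WT RF (edgeR adjusted p = 0.000275) and 0.55 log2 in Cry WT AL (edgeR adjusted p = 0.347). The difference between these rhythms did not pass the test between feedings, which called 0 of the 10 genes in any of the 4 line and genotype backgrounds.

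Of the 3 ATG8 genes, Gabarapl1 had the widest fitted range of the 10 genes in 3 of the 4 WT groups (Bnip3 in Cry WT AL), Map1lc3b a narrower one and Map1lc3a none that passed. Gabarapl1 (chr6:129533160-129542346, plus strand), of the GABARAP family, held 345 and 447 CPM at ZT8 and 92.9 and 119 CPM at ZT16 in Bmal1 WT AL. In Cry WT RF it held 348 and 354 CPM at ZT8 and 87.5 and 92.1 CPM at ZT16. These were the times of its highest and lowest means in both groups, picked from the same values. The fitted range ran from 1.39 log2 in Cry WT AL (edgeR adjusted p = 0.00188) to 1.91 log2 in Bmal1 WT AL (edgeR adjusted p = 8.03e-06), with peaks between ZT5.9 and ZT7.3. Map1lc3b (chr8:121590361-121598760, plus strand), which encodes LC3B, peaked later, between ZT9.7 and ZT11.3. Its range was called in 3 of the 4 WT groups, at 0.66 to 0.76 log2, and was 0.43 log2 in Cry WT AL (edgeR adjusted p = 0.364). None of the 3 calls held without either series of its group (0.59 to 0.88 log2). In Cry WT RF the 2 libraries of ZT12 held 124 and 197 CPM of Map1lc3b. The higher, of series 6, held 21060 CPM of the acute phase gene Saa1. Without the libraries that stood apart on acute phase, interferon or pancreas genes the range there was 0.44 log2 (edgeR adjusted p = 0.296). Map1lc3a (chr2:155276297-155278073, plus strand), which encodes LC3A, had ranges of 0.21 to 0.44 log2 in the WT groups with a lowest edgeR adjusted p of 0.258.

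The cargo receptors had fitted peaks at different hours. Sqstm1 (chr11:50199366-50210827, minus strand) encodes p62, which binds ubiquitin-tagged cargo, and Bnip3 (chr7:138890836-138909519, minus strand) encodes a receptor on mitochondria. Bnip3 held 102 and 107 CPM at ZT12 and 34.8 and 42.3 CPM at ZT0 in Bmal1 WT AL. In Cry WT AL it held 69.9 and 88.4 CPM at ZT12 and 30.1 and 30.6 CPM at ZT0. Its level was thus low in the first hours of light and high around dusk. The fitted range lay between 1.43 and 1.61 log2 in the WT groups with peaks from ZT12.5 to ZT13.7, and the largest edgeR adjusted p of the 4 was 3.34e-05. Sqstm1 was called in the RF groups, with a range of 0.76 log2 and a peak at ZT3.1 in Bmal1 WT (edgeR adjusted p = 0.00313) and 0.69 log2 with a peak at ZT1.5 in Cry WT (edgeR adjusted p = 0.00863). Under AL its range was 0.56 log2 in Bmal1 WT (peak at ZT4.8, edgeR adjusted p = 0.0551) and 0.25 log2 in Cry WT. Tfeb (chr17:47737030-47792419, plus strand) was called in Bmal1 WT AL alone, with a range of 0.58 log2 and a peak at ZT14.7 (edgeR adjusted p = 0.0403), and had ranges of 0.47 to 0.56 log2 in the other WT groups.

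**Figure D1:**
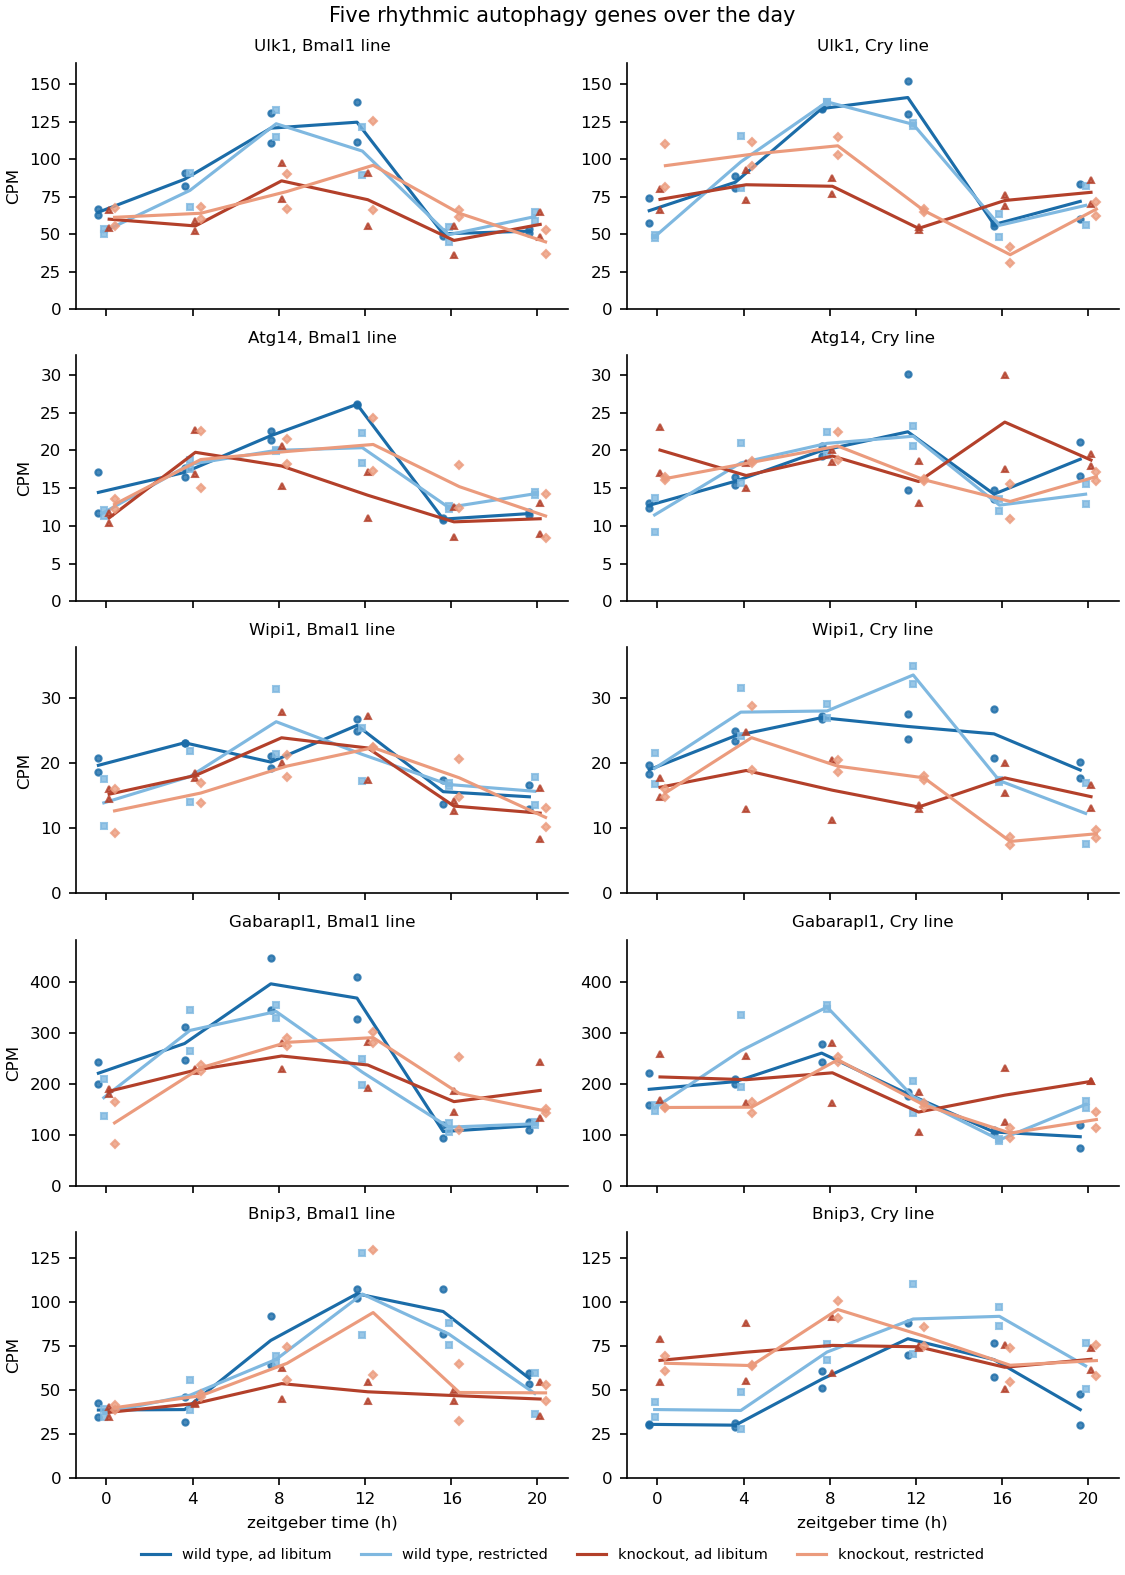
CPM of Ulk1, Atg14, Wipi1, Gabarapl1 and Bnip3 against zeitgeber time in the Bmal1 line (left) and the Cry line (right). Points are single libraries, lines join the means of the 2 libraries of a time, and colours mark genotype and feeding. The WT curves of Gabarapl1 are highest at ZT8 (260 to 396 CPM), and the Bnip3 curves of Cry KO start above their WT at ZT0 (65.2 and 66.8 against 38.8 and 30.4 CPM).

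These WT calls thinned when a series was left out, which keeps 1 library per time in that group. Then 2 and 3 of the 6 calls were left in Bmal1 WT AL, 2 and 3 of the 7 in Bmal1 WT RF, 1 and 1 of the 3 in Cry WT AL, and 1 and 4 of the 7 in Cry WT RF. Gabarapl1 and Bnip3 in both Bmal1 WT groups, and Bnip3 in Cry WT AL, passed under each alternative tried.

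The windows around the start sites were searched for known motifs, first the E-box CACGTG, the sequence that BMAL1 and its partner CLOCK are known to bind. RefSeq windows (GRCm38.p6, 250 bases before to 50 after a start site) were found for 8 of the 10 genes, with 10 windows in all, and none for Map1lc3a and Becn1. Both strands were searched for 9 sequences. The E-box CACGTG was found in 7.15% of 32851 mouse windows of the same length, TCACGTGA (the core of TFEB sites, which contains the E-box) in 0.974%, and TAGGTCA (the core of ROR and REV-ERB sites) in 2.61%. The D-box forms TTATGTAA and TTACGTAA were found in 0.938% and 0.119%, GTAAACA (FOXO) in 3.65%, TGACGTCA (cAMP response) in 1.79%, the direct repeat bound by PPARs in 0.0396% and TGACNNNGC (antioxidant response) in 12.4%. The Bnip3 window held an E-box that begins 108 bases before the start, the Atg14 window one that begins 1 base before the start, and the Map1lc3b window TGACNNNGC at base 5 after it. The windows of Ulk1, Gabarapl1, Sqstm1, Tfeb (3 windows) and Wipi1 held none of the 9. A match is a string of letters, not a measured binding site. The Bnip3 and Atg14 windows are printed since they hold an E-box, in capitals, and that of Gabarapl1 as a window of a gene called in all 4 WT groups without one.
Bnip3 promoter, chr7:138909457-138909756, minus strand: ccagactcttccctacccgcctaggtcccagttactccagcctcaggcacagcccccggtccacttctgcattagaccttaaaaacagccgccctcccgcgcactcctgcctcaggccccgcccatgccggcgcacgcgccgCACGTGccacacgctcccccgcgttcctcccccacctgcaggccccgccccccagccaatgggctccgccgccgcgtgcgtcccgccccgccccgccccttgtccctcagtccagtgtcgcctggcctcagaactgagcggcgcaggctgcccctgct
Atg14 promoter, chr14:47568385-47568684, minus strand: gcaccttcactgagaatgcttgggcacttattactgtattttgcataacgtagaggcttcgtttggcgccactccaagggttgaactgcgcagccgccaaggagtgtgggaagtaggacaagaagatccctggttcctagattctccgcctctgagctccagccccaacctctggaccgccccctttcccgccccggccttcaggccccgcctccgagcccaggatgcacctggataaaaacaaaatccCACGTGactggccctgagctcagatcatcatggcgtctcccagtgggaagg
Gabarapl1 promoter, chr6:129532942-129533241, plus strand: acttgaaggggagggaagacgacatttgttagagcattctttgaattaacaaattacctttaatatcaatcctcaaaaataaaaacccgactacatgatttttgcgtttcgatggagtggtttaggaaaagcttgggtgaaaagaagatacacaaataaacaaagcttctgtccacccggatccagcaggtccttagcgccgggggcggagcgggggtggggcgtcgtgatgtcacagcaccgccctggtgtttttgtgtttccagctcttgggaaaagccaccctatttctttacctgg

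In the knockouts under AL no rhythm of the autophagy genes passed the thresholds, where almost none of all genes did. Under RF some passed. In Bmal1 KO AL 0 of the 10 genes were called by edgeR and 0 by limma-voom, 2 had an unadjusted p under 0.05, 2 were called without a filter on low counts, and 0.273% of all genes were called. In Cry KO AL the counts were 0, 0 and 0, and 0.0109% of all genes were called. Of the 10, 5 were called in Bmal1 KO RF against 4.94% of all genes, and 2 in Cry KO RF against 5.97%. The 5 of Bmal1 KO RF were Gabarapl1, Bnip3, Wipi1, Atg14 and Map1lc3b, with ranges of 1.26, 1.05, 0.93, 0.86 and 0.86 log2 and peaks between ZT9 and ZT11.3. In Bmal1 KO AL the 2 genes with an unadjusted p under 0.05 were Atg14 and Wipi1. Their ranges there were 0.96 and 0.98 log2 (edgeR adjusted p = 0.0969 and 0.12), no narrower than under RF. Gabarapl1, Bnip3 and Map1lc3b had narrower ranges in Bmal1 KO AL, at 0.565, 0.404 and 0.471 log2. The 2 of Cry KO RF were Wipi1, with a range of 1.51 log2 and a peak at ZT6 (edgeR adjusted p = 0.000426), and Ulk1, with 1.42 log2 and a peak at ZT4.2 (edgeR adjusted p = 0.00149). The 5 calls of Bmal1 KO RF became 0 without its series 4, 3 without its series 2, 2 without the libraries that stood apart on acute phase, interferon or pancreas genes, and 0 when that group was fitted alone. The 2 of Cry KO RF became 0 without its series 3 and 1 without its series 5.

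**Figure D2:**
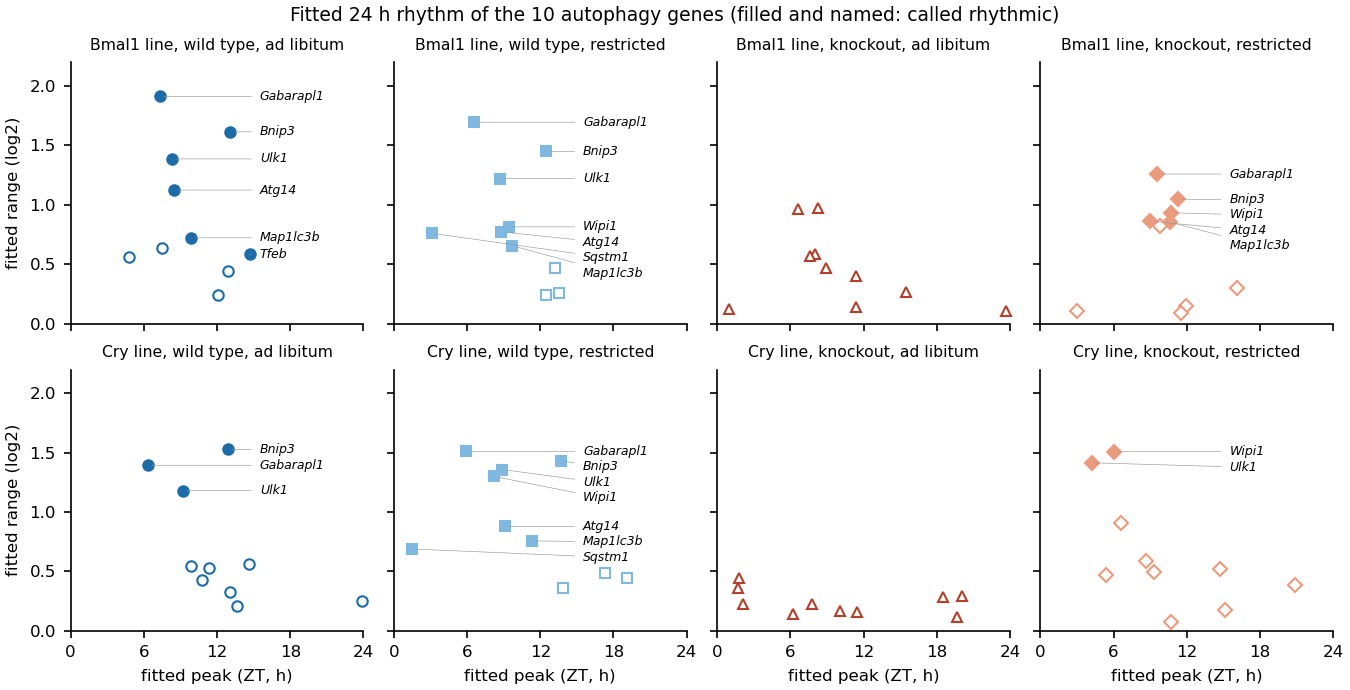
Fitted range (log2, vertical) against fitted peak time (ZT, horizontal) of the 10 genes in each of the 8 groups. Filled and named points were called rhythmic, open points were not. The panels of both knockouts under AL hold open points alone, and the peaks of the named genes in Bmal1 KO RF lie between ZT9 and ZT11.3.

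Whether a rhythm differed from its WT was tested directly. For the Bmal1 knockout, 0 of the 10 rhythms passed edgeR's test under AL and 0 under RF, with 2 unadjusted p under 0.05 in each and 0 called by limma-voom, against 0.611% and 1.06% of all genes. The nearest was Bnip3 under AL, whose range was 1.61 log2 in WT and 0.40 log2 in KO (edgeR adjusted p = 0.126 for the difference). For the Cry knockout, 1 gene passed under AL and 2 under RF, against 0.677% and 2.16% of all genes. Bnip3 passed in both. In Cry KO AL its 2 libraries held 54.7 and 79 CPM at ZT0 and 74.1 and 75 CPM at ZT12, where the WT held 30.1 and 30.6 and then 69.9 and 88.4 CPM. Its KO mean was above WT at ZT0, ZT4, ZT8 and ZT20 and below it at ZT12 and ZT16, so the daily span was flatter. The fitted range was smaller by 1.30 log2 under AL (a difference of −1.30, edgeR adjusted p = 0.0201) and the difference was −0.94 log2 under RF (edgeR adjusted p = 0.0474). Ulk1 passed under RF with a difference in range of 0.06 log2 and a peak 4.7 h earlier, a shift of −4.7 h (edgeR adjusted p = 0.0202). At ZT0 Ulk1 held 81.5 and 110 CPM in Cry KO RF and 47.4 and 49.3 CPM in Cry WT RF. At ZT12 it held 64.7 and 67 against 122 and 125 CPM. These times were picked from the same values.

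The call of Bnip3 under AL was lost without any 1 of the 4 series compared (−1.25 log2 without series 2 of Cry KO AL, edgeR adjusted p = 0.336, and −1.46 to −1.19 over the 4), and with the compared groups fitted alone (0 genes). It was also lost without the libraries that stood apart (−1.17 log2, edgeR adjusted p = 0.0895). A test of any difference between times, in place of the cosine, called Bnip3 under neither feeding. The differences were then −1.14 log2 under AL and −0.68 log2 under RF (edgeR adjusted p = 0.458 and 0.453). Under RF 0 or 1 of the 2 calls were left when a series was dropped, 0 without series 3 or series 5 of Cry KO RF or series 9 of Cry WT RF and 1, Bnip3, without series 6 of Cry WT RF. The Bnip3 difference under RF was −0.50 log2 without series 9 of Cry WT RF (edgeR adjusted p = 0.669) and −1.47 without series 6 (edgeR adjusted p = 0.0229). The Ulk1 difference in range changed sign between series, from −0.28 log2 without series 9 of Cry WT RF and −0.15 without series 3 of Cry KO RF to 0.29 without series 6 of Cry WT RF and 0.37 without series 5 of Cry KO RF. The test takes range and peak time together, so these signs do not describe the earlier peak of Ulk1. Its shift in these fits is not given here.

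Between feedings, edgeR called 0 of the 10 rhythms as different in Bmal1 WT, Bmal1 KO, Cry WT and Cry KO, with 0, 0, 0 and 2 unadjusted p under 0.05 and 0 calls by limma-voom in each. Of all genes 0.0109%, 0%, 0.0982% and 0% were called. The RF groups share no library with the AL groups, but each WT group serves in a comparison with its KO and in one between feedings. The largest change of range was that of Wipi1 in Cry KO, 0.22 log2 under AL and 1.51 log2 under RF (edgeR adjusted p = 0.358).

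Mean levels were compared as the difference of log2 level averaged over the 6 times with equal weight, 12 libraries against 12. The Bmal1 knockout under AL had lower levels of most of the 10 genes. Of the 10, 7 fell and 0 rose, against 9.48% of all genes that fell and 10.9% that rose, and the median over the 10 was −0.26 log2 beside 0.02 over all genes. Map1lc3a ran from 31.5 through a median of 35.5 to 57.7 CPM in WT and from 15.7 through 21 to 28.5 CPM in KO. Each KO library lay below each WT library, a separation that 1.64% of all genes showed. The log2 fold change was −0.85 ± 0.12 (SE, edgeR adjusted p = 5.5e-08), lower at 6 of 6 times. Tfeb ran from 6.08 through 9.7 to 11.4 CPM in WT and from 4.7 through 6.83 to 9.07 CPM in KO. Its libraries overlapped, and it fell by 0.46 log2 (SE 0.08, edgeR adjusted p = 1.91e-05), also at 6 of 6 times.

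Bnip3 ran from 31.9 through 62 to 107 CPM in WT and from 34.4 through 43.6 to 62.5 CPM in KO. These ranges overlapped, the KO means of ZT8 to ZT16 (46.8 to 53.6 CPM) lay below those of WT (78.2 to 105 CPM), and the mean fell by 0.49 log2 (SE 0.13, edgeR adjusted p = 0.0033). Bnip3 lies 25.7 Mb from Arntl on the same chromosome, and a part of sequence linked to the targeted locus was not tested. Ulk1 fell by 0.34, Map1lc3b by 0.27, Sqstm1 by 0.25 and Becn1 by 0.20 log2, with edgeR adjusted p of 0.00769, 0.025, 0.0363 and 0.00339. Atg14, Wipi1 and Gabarapl1 did not pass, at −0.25, −0.20 and −0.09 log2. Map1lc3a and Tfeb kept their calls in all 14 alternatives. Bnip3 lost its call without series 1 of KO (−0.42, edgeR adjusted p = 0.0787) or series 8 of WT (−0.34, 0.125), Ulk1 without series 1 of WT (−0.32, 0.0773), Map1lc3b without series 1 of KO (−0.21, 0.257) or of WT (−0.18, 0.379), and Sqstm1 without series 1 of KO (−0.20, 0.296), series 8 of KO (−0.29, 0.0873) or series 8 of WT (−0.10, 0.558).

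Under RF the Bmal1 knockout had 3 of the 10 lower and 0 higher, against 8.35% of all genes lower and 10% higher, with a median over the 10 of −0.17 log2 beside 0.02 over all genes. The 3, Map1lc3a, Tfeb and Becn1, had also fallen under AL. Map1lc3a ran from 24.7 through 28.1 to 32.5 CPM in WT and from 13.4 through 19.6 to 22.2 CPM in KO. The groups again did not overlap, as for 1.09% of all genes, and the log2 fold change was −0.56 ± 0.12 (SE, edgeR adjusted p = 0.000189). Tfeb fell by 0.38 log2 (SE 0.08, edgeR adjusted p = 0.000417) and Becn1 by 0.18 log2 (SE 0.05, edgeR adjusted p = 0.00924). Becn1 ran from 25 through 32.5 to 34.9 CPM in WT and from 22.2 through 28.4 to 30.9 CPM in KO, so its groups overlapped, with the KO mean lower at 6 of 6 times. Becn1 lost its call without series 4 of KO (−0.18, edgeR adjusted p = 0.0548).

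The Bmal1 knockout effect did not differ detectably between feedings. Of the 10 genes edgeR called 0, as did DESeq2 and limma-voom, 1 had an unadjusted p under 0.05, and 0% of all genes were called. The summed level of 5 hepatocyte markers moved with these groups. It ran from 70300 through 98300 to 125000 CPM in Bmal1 WT AL and from 31500 through 42500 to 52900 CPM in Bmal1 KO AL, and from 44000 to 96500 and from 35400 to 50800 CPM under RF, with 0 of the 5 at 0 in any group. Median summed cholangiocyte markers were 41.7 and 66.8 CPM in WT and KO under AL and 40.1 and 55.3 CPM under RF, and erythroid markers 273 and 174 and then 224 and 96.7 CPM, with overlapping libraries. Endothelial and Kupffer cell medians were 299 and 293 and 235 and 216 CPM under AL. The part of these markers in the lower autophagy genes was not tested.

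**Figure D3:**
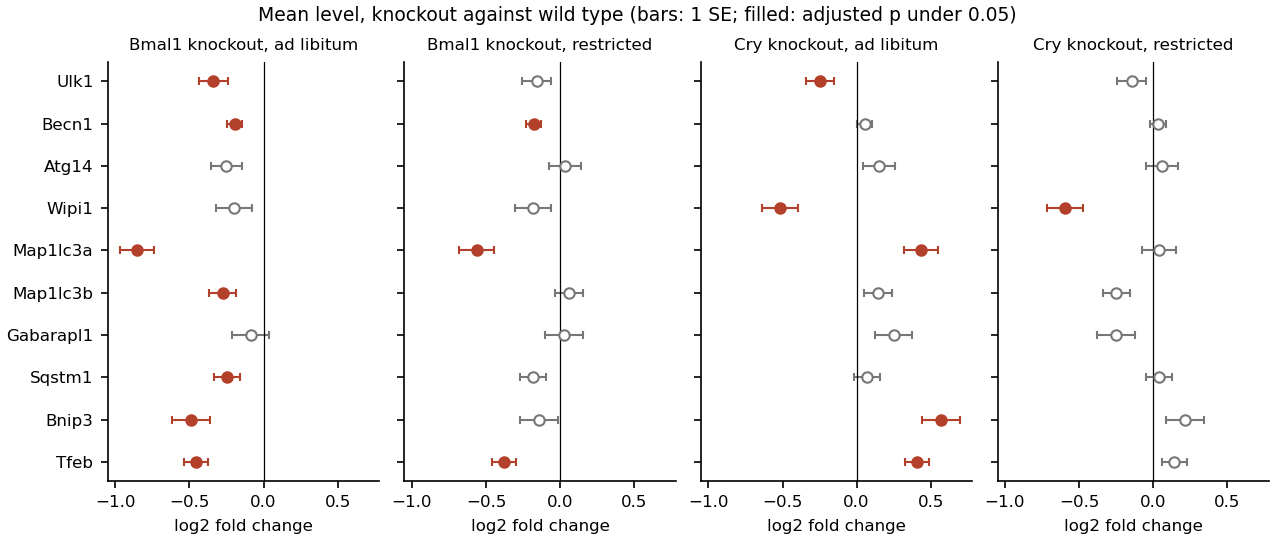
Log2 fold change of mean level, KO against WT, for the 10 genes in 4 comparisons of 12 against 12 libraries. Bars are 1 SE, and filled points passed an adjusted p of 0.05. In Bmal1 KO under AL all 7 filled points lie below 0, and in Cry KO under AL 3 lie above and 2 below.

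The Cry knockout under AL gave a mixed picture. Of the 10 genes 3 rose (Map1lc3a, Bnip3 and Tfeb) and 2 fell (Wipi1 and Ulk1), against 15.7% of all genes that rose and 11.7% that fell. The median over the 10 was 0.15 log2 beside −0.06 over all genes. The Ulk1 call held in only 2 of 13 alternatives. It was lost, among others, with DESeq2 (adjusted p = 0.0548) and limma-voom (adjusted p = 0.0573). Tfeb kept its call in all 13, Bnip3 and Wipi1 in 12 each and Map1lc3a in 10. Map1lc3a lost it, among others, with only the groups compared (edgeR adjusted p = 0.0755). Bnip3 ran from 28.9 through 49.4 to 88.4 CPM in WT and from 50.4 through 73.9 to 91.2 CPM in KO. The ranges overlapped, since the WT reached the KO level around dusk, and the mean was higher by 0.57 ± 0.13 log2 (SE, edgeR adjusted p = 0.000643). Tfeb ran from 6.24 through 7.65 to 10.2 CPM in WT and from 7.73 through 10.9 to 13.2 CPM in KO. It overlapped as well, was higher at 6 of 6 times, and rose by 0.41 ± 0.08 log2 (SE, edgeR adjusted p = 0.000157). Wipi1 ran from 17.6 through 23.5 to 28.2 CPM in WT and from 11.2 through 15.1 to 24.7 CPM in KO. It was lower at 6 of 6 times, with overlapping libraries, and the log2 fold change was −0.52 ± 0.12 (SE, edgeR adjusted p = 0.00109).

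Map1lc3a divided by series in Cry KO AL. The 6 libraries of series 2 held 42.5 to 54.2 CPM and the 6 of series 1 held 24.1 to 33.8 CPM, where the WT held 21.2 to 36.7 CPM. The series of the knockout did not overlap, and series 1 lay inside the WT range. The log2 fold change was 0.43 ± 0.11 with both series (SE, edgeR adjusted p = 0.0035), 0.79 without series 1 (edgeR adjusted p = 2.32e-08) and 0.01 without series 2 (edgeR adjusted p = 1). Without series 2 Tfeb kept its call (0.34, edgeR adjusted p = 0.0137), and Bnip3 (0.33, 0.258), Wipi1 (−0.38, 0.141) and Ulk1 (−0.18, 0.549) lost theirs. Without that series 4.06% of all genes passed in this comparison, and without series 1 50.4%. The lower endothelial and Kupffer cell markers of series 2 moved with these values, as did stellate cell markers (114 to 200 CPM in series 2 and 232 to 289 in series 1). Median hepatocyte, cholangiocyte and erythroid sums were higher in series 2, at 92600, 77.4 and 210 CPM against 73600, 47.4 and 121 CPM in series 1, with overlapping libraries. The part of these markers was not tested. Map1lc3a also lost its call without series 2 of WT (0.32, edgeR adjusted p = 0.141), as did Ulk1 (−0.14, 0.476), whose main value was −0.25 log2 with an edgeR adjusted p of 0.0496.

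**Figure D4:**
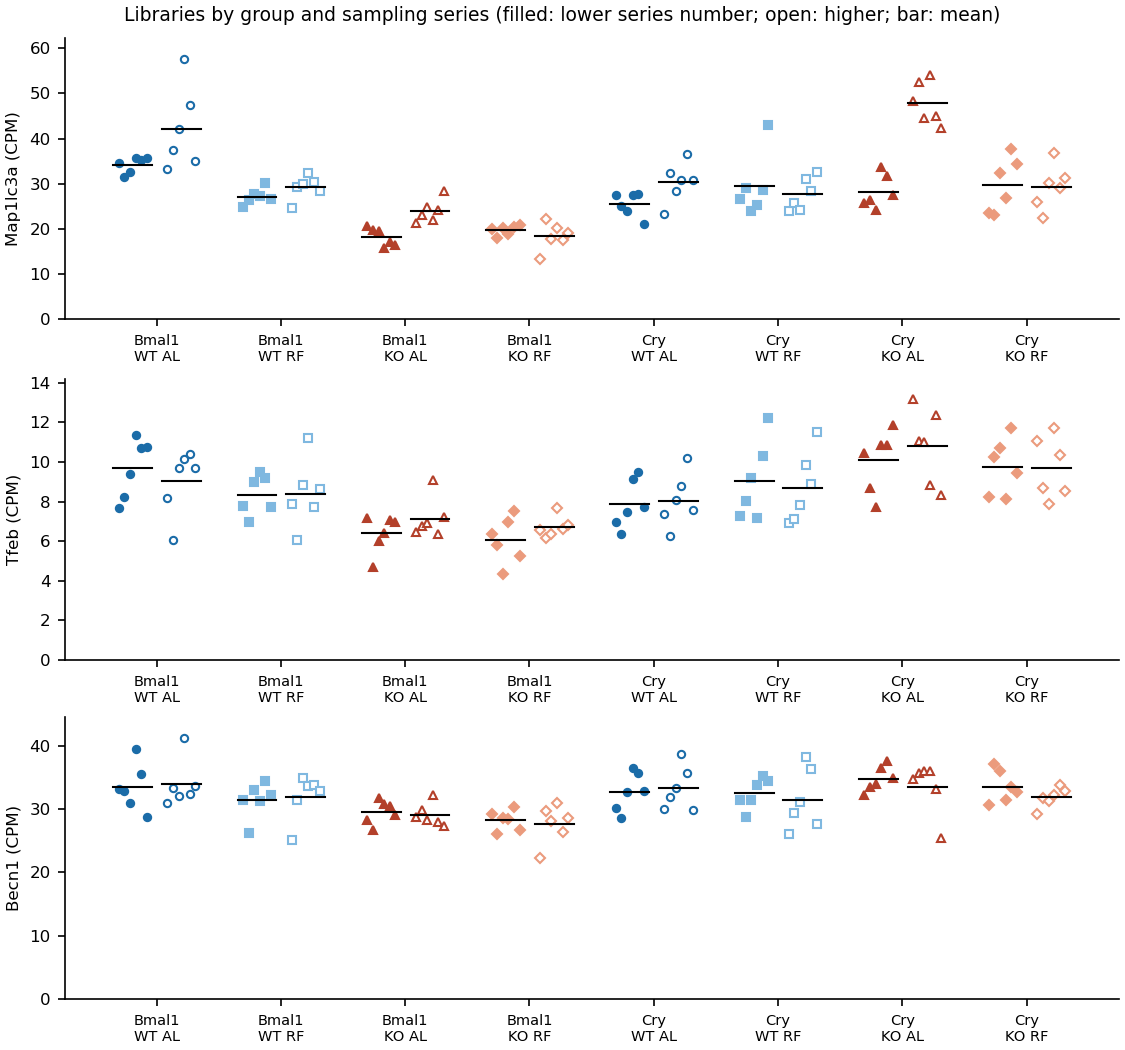
CPM of Map1lc3a, Tfeb and Becn1 in each library, by group and by series (filled, the lower series number; open, the higher). Bars are means of 6 libraries. The Map1lc3a libraries of Bmal1 KO AL (15.7 to 28.5 CPM) lie below those of Bmal1 WT AL (31.5 to 57.7 CPM), and the series of Cry KO AL lie apart.

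Under RF the Cry knockout changed 1 of the 10 genes. Wipi1 fell, and 0 rose, against 2.49% and 2.67% of all genes, with a median over the 10 of 0.04 log2 beside −0.04 over all genes. Wipi1 ran from 7.58 through 22.8 to 34.9 CPM in WT and from 7.37 through 16.7 to 28.8 CPM in KO. The libraries overlapped widely because of the daily swing, but the KO mean was lower at 6 of 6 times, and the log2 fold change was −0.60 ± 0.12 (SE, edgeR adjusted p = 0.000924). Without series 5 of KO its edgeR adjusted p was 0.0524 at −0.58 log2. The test of the Cry knockout effect between feedings called 0 of the 10 genes by edgeR, 2 by DESeq2 and 0 by limma-voom, with 4 unadjusted p under 0.05 and 3.93% of all genes called. Without series 1 of Cry KO AL it called 5 of the 10 and 37.6% of all genes, and without series 2 it called 0 and 0.00501%. The 4 largest differences were negative, Gabarapl1 at −0.50, Map1lc3b at −0.39, Map1lc3a at −0.39 and Bnip3 at −0.36 log2, with edgeR adjusted p of 0.0945, 0.0682, 0.157 and 0.256. These values include series 2 of Cry KO AL. Without that series the knockout effects under AL were 0.01 log2 for Map1lc3a and 0.33 log2 for Bnip3. Under RF they were 0.04 and 0.21 log2. In the 2 Cry comparisons 0 of the 10 genes had separate KO and WT libraries, beside 0.447% and 0.207% of all genes.

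The knockout effects of the lines were compared directly, as the Cry effect minus the Bmal1 effect. Under AL 7 of the 10 genes were higher in this difference and 0 lower, against 17.2% and 17.3% of all genes. The largest were Map1lc3a at 1.29 ± 0.16, Bnip3 at 1.06 ± 0.18 and Tfeb at 0.86 ± 0.12 log2 (SE), with edgeR adjusted p of 1.03e-08, 7.18e-06 and 3.75e-08. These 3 passed in all 17 alternatives, and without series 2 of Cry KO AL they stood at 0.86, 0.81 and 0.80 log2 (edgeR adjusted p = 6.86e-06, 0.00137 and 6.34e-07). Map1lc3b, Atg14, Sqstm1 and Becn1 passed at 0.42, 0.40, 0.32 and 0.25 log2. Without series 2 of Cry KO AL, Map1lc3b, Atg14 and Sqstm1 stood at 0.17, 0.28 and 0.13 log2 (edgeR adjusted p = 0.442, 0.25 and 0.587). Map1lc3b also lost its call without series 1 of Bmal1 KO AL, series 1 of Bmal1 WT AL or series 4 of Cry WT AL (0.34 to 0.36 log2), Atg14 without any series of the Bmal1 AL groups or series 4 of Cry WT AL (0.33 to 0.43), and Sqstm1 without either series of Bmal1 KO AL, series 8 of Bmal1 WT AL or series 4 of Cry WT AL (0.17 to 0.37). Under RF 3 were higher and 0 lower, against 6.1% and 6.94% of all genes, namely Map1lc3a at 0.60, Tfeb at 0.52 and Becn1 at 0.21 log2 (edgeR adjusted p = 0.00724, 0.000898 and 0.045). Map1lc3a lost this call without series 4 of Bmal1 KO RF (0.55, edgeR adjusted p = 0.0552), as did Becn1 (0.20, 0.117), which lost it in 5 of the 8 fits that left out a series.

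The WT groups of the lines were not alike under AL. Cry WT AL was lower than Bmal1 WT AL in 5 of the 10 genes and higher in 0, against 9.38% and 8.32% of all genes. Map1lc3a, Bnip3 and Gabarapl1 differed by −0.45, −0.44 and −0.44 log2, and Map1lc3b and Tfeb by −0.27 and −0.23 log2, with edgeR adjusted p from 0.00508 to 0.037. Only 1 or 2 of the 5 calls were left when either series of either group was dropped. Under RF edgeR, DESeq2 and limma-voom called 0 of the 10 genes, with 1 unadjusted p under 0.05, and 0.191% of all genes were higher and 0.524% lower. Both comparisons of knockout effects use these WT groups.

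Between feedings the mean level of few of the 10 genes was called, at shares near those of all genes. In Bmal1 WT 2 of the 10 fell and 0 rose, against 7.2% and 6.67% of all genes. Map1lc3a ran from 31.5 through 35.5 to 57.7 CPM under AL and from 24.7 through 28.1 to 32.5 CPM under RF. These ranges overlapped slightly, and it fell by 0.43 log2 (SE 0.11, edgeR adjusted p = 0.0112). Map1lc3b fell by 0.30 log2 (SE 0.09, edgeR adjusted p = 0.0267). Both calls were lost without series 2 of RF (−0.38 and −0.23) or series 4 of RF (−0.45 and −0.33), Map1lc3a also without series 8 of AL (−0.28) and Map1lc3b without series 1 of AL (−0.19). In Cry KO 1 of the 10 fell and 0 rose, against 9.04% and 4.35% of all genes. DESeq2 called 3 and limma-voom 0. Without series 1 of Cry KO AL edgeR called 4 of the 10 and 41.2% of all genes, and without series 2 it called 0 and 1.3%. The 1 was Map1lc3a at −0.37 log2 (edgeR adjusted p = 0.0256), which was 0.05 log2 without series 2 of Cry KO AL (edgeR adjusted p = 0.971) and had edgeR adjusted p of 0.0805 and 0.141 without series 3 and series 5 of Cry KO RF.

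In Bmal1 KO edgeR, DESeq2 and limma-voom each called 0 of the 10 genes between feedings, with 2 unadjusted p under 0.05, and 0.6% of all genes rose and 0.0382% fell. In Cry WT they called 0 as well, with 1 unadjusted p under 0.05, where 0.622% of all genes rose and 0.835% fell. The nearest was Bnip3 in Cry WT, at 49.4 CPM (median) under AL and 68.8 CPM under RF, a difference of 0.41 ± 0.13 log2 (SE, edgeR adjusted p = 0.0869).

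A wider list of 66 other genes of the pathway, all of which passed the filter, gives the setting of these values. It was chosen with earlier results of these data known, as were the 10 genes, so its shares are no independent test. In Bmal1 KO AL 5 rose and 8 fell, 7.58% and 12.1% of the list beside 10.9% and 9.48% of all genes, shares that lie near each other. The 2 with the smallest p were Atg4d, a protease that processes ATG8 proteins, at −0.49 ± 0.07 log2 (SE, edgeR adjusted p = 6.92e-07), and Sesn3, a sestrin that restrains the nutrient sensor mTORC1, at 0.71 ± 0.11 log2 (SE, edgeR adjusted p = 7.91e-07). In Bmal1 KO RF 8 rose and 3 fell (12.1% and 4.55%, beside 10% and 8.35% of all genes), and 4 of the 8 belonged to the 16 lysosome genes. Lamp2, a lysosomal membrane protein, rose by 0.46 ± 0.07 log2 (SE, edgeR adjusted p = 9.64e-07), and Foxo3, a transcription factor of autophagy genes, fell by 0.55 log2 (SE 0.09, edgeR adjusted p = 4e-06). The count of 11 was 6 without series 4 of Bmal1 KO RF.

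In Cry KO AL 17 of the 66 rose and 5 fell (25.8% and 7.58%, beside 15.7% and 11.7% of all genes), 7 of the 17 being among the 16 lysosome genes. Gabarap and Gabarapl2, the other 2 ATG8 genes measured, rose by 0.60 ± 0.11 and 0.44 ± 0.09 log2 (SE, edgeR adjusted p = 6.39e-05 and 0.00012). Without series 2 of Cry KO AL they stood at 0.03 and 0.16 log2 (edgeR adjusted p = 0.964 and 0.348). The count of 22 was 3 without series 2 of Cry KO AL, beside 4.06% of all genes, and 40 without its series 1, beside 50.4%. In Cry KO RF 2 rose and 1 fell (3.03% and 1.52%, near the 2.67% and 2.49% of all genes). The smallest p were those of Sesn2, another sestrin, at 0.47 log2 and Lipa, the lysosomal acid lipase, at 0.27 log2 (edgeR adjusted p = 0.0129 and 0.0397), and 0 passed without series 6 of Cry WT RF. Sesn2 and Lipa also lost their calls without series 5 of Cry KO RF (0.46 and 0.18 log2, edgeR adjusted p = 0.167 and 0.582), and Sesn2 without its series 3 (0.46, 0.0771). Between feedings 1 of the 66 rose and 13 fell in Bmal1 WT (1.52% and 19.7%, beside 6.67% and 7.2% of all genes), and 7 of the 13 were lysosome genes. These were led by Hexa, a subunit of a lysosomal hexosaminidase, at −0.41 log2 and Atp6v0d1, a subunit of the proton pump of lysosomes, at −0.33 log2 (edgeR adjusted p = 0.00374 and 0.0066), and the count of 14 was 0 without series 4 of Bmal1 WT RF. Both genes also lost their calls without series 1 of Bmal1 WT AL (−0.32 and −0.21 log2), and Atp6v0d1 without series 2 of Bmal1 WT RF (−0.26). In Cry KO 4 rose and 7 fell (6.06% and 10.6%, beside 4.35% and 9.04% of all genes), with Atg101, a subunit of the ULK1 complex, at −0.64 log2 and Gabarap at −0.50 log2 (edgeR adjusted p = 0.00176 and 0.00212). The count of 11 was 2 without series 2 of Cry KO AL, beside 1.3% of all genes, and 38 without its series 1, beside 41.2%. Without series 2 Atg101 and Gabarap stood at 0.03 and 0.07 log2 (edgeR adjusted p = 1 and 0.751). In Bmal1 KO and Cry WT edgeR called 0 of the 66, with 6 unadjusted p under 0.05 in each.

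Among the 66, rhythms were called in 13 genes in Bmal1 WT AL, 16 in Bmal1 WT RF, 9 in Cry WT AL and 24 in Cry WT RF, and in 0 and 11 in Bmal1 KO under AL and RF and 0 and 9 in Cry KO. The WT shares were 19.7%, 24.2%, 13.6% and 36.4% beside 7.98%, 10.7%, 5.74% and 15.8% of all genes, and those of the RF knockouts 16.7% and 13.6% beside 4.94% and 5.97%. Without either of its series each of the 6 counts above 0 was lower, at 0 to 11. The 0 of the AL knockouts stand beside 0.273% and 0.0109% of all genes called, and 10 and 7 of the 66 had an unadjusted p under 0.05 (edgeR). Of the 66, 4 were rhythmic in all 4 WT groups: Npc1, the lysosomal cholesterol transporter, Flcn, which acts on mTORC1 at the lysosome, Calcoco1, a cargo receptor, and Atg2a, which supplies lipid to the growing membrane. Their median WT ranges were 1.56, 1.48, 1.31 and 0.79 log2, and their peaks lay between ZT6.7 and ZT9.8, a span that also holds the WT peaks of Ulk1. Npc1 and Calcoco1 were also called in both RF knockouts, Npc1 at 1.48 log2 in Bmal1 KO RF and 1.05 log2 in Cry KO RF.

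Over the 48 means of group and time, the 10 genes formed no common pattern. Ulk1 followed Atg14 (Pearson r = 0.81), Wipi1 (0.74) and Map1lc3b (0.70), and Map1lc3a followed Tfeb (0.78) and Becn1 (0.71), while Ulk1 and Map1lc3a had r = 0.11. Sqstm1 and Bnip3 had r = −0.34. Of 9454 genes with a mean of at least 5 CPM, the nearest to Gabarapl1 were Wdtc1 (0.91), Abtb1 (0.91) and Pik3c3 (0.89), the last of which encodes the catalytic subunit of the autophagy lipid kinase. The nearest to Bnip3 were Por, Nhlrc2 and Ndel1 (0.89, 0.89 and 0.86), and to Ulk1 4930523C07Rik, Scamp1 and Clmn (0.88, 0.86 and 0.85). These correlations describe the means, which share libraries and groups.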

How the data were processed

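Liver mRNA of 96 mouse samples was sequenced from libraries made with a stranded mRNA kit, per the labels' protocols. The authors deposited raw counts per Ensembl gene, unfiltered and not normalised. The aligner was STAR 2.4.0i and the genome build mm10, per the submitters' processing notes. The sources used here name no counting program, strand setting or annotation, so reads of a gene and its antisense neighbour (58 bases of Zcchc14 over Map1lc3b, 10366 of Cntd1 over Becn1) cannot be told apart. Symbols were matched for 55154 of 55421 identifiers, and gene positions are those of GRCm38.

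Counts were filtered by group and time (at least 10 counts, filterByExpr), scaled by TMM and fitted with edgeR 4.0.16 (quasi-likelihood test, trended dispersion, R 4.3.3), which left 18326 genes and 99.97% of counts. Mean levels used all 48 combinations of group and time in 14 comparisons, and rhythms a 24 h cosine in each of 8 groups, with 8 rhythm differences. P-values were adjusted by Benjamini-Hochberg over all genes tested, at 0.05. The fits were also run on simulated counts with independent libraries, the same dispersion for all genes and no difference between series. Such a run cannot show how differences between series act on the calls. DESeq2 1.42.0, limma 3.58.1 (voom), RLE factors, other filters, smaller fits and fits without a series were alternatives. The 10 genes, the wider list of 66 and the markers were chosen with earlier results of these data known. Named from the wider list were the 2 called genes with the smallest p per knockout or feeding comparison and those rhythmic in all 4 WT groups. The 3 genes most like each of the 3 most rhythmic members were also named.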

Additional observations from a re-analysis of the deposited data

Results flagged for a closer look

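The knockout effect differed between the lines, by a test of the Cry effect minus the Bmal1 effect in edgeR. Under AL the difference was 1.29 log2 for Map1lc3a, 1.06 for Bnip3, 0.86 for Tfeb, 0.42 for Map1lc3b, 0.40 for Atg14, 0.32 for Sqstm1 and 0.25 for Becn1. Under RF it was 0.60 log2 for Map1lc3a, 0.52 for Tfeb and 0.21 for Becn1. Some of these calls were lost in part of the alternatives. They were Map1lc3b, Atg14, Sqstm1 and Becn1 under AL, and Map1lc3a and Becn1 under RF. Rhythms differed between knockout and wild type of the Cry line in 3 tests. The differences in range were −1.30 log2 for Bnip3 under AL, −0.94 log2 for Bnip3 under RF and 0.06 log2 for Ulk1 under RF. The last came with a peak 4.7 h earlier (−4.7 h). These calls held in 5, 8 and 8 of 12 alternatives. Without a series the differences ran from −1.46 to −1.19, from −1.47 to −0.50 and from −0.28 to 0.37 log2.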

How the results depend on the processing

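The values that changed sign were Map1lc3a for RF against AL in Cry KO, at 0.05 log2 without series 2 of Cry KO AL (−0.74 without series 1), and the Ulk1 difference in range in Cry KO RF, at −0.15 and −0.28 log2 without series 3 of Cry KO RF and series 9 of Cry WT RF (0.37 without series 5 of Cry KO RF). None of the values of changed sign passed. For results called in the main fits, values under other settings were compared. Of 316 values of mean level 277 kept their call, of 288 rhythm values 254 and of 24 rhythm differences 20. The rhythm values include a setting without the minimum range, under which no call could be lost. Leaving out a series, which leaves 1 library per time in that group and assumes that it varies like the other groups, kept 115 of 176, 21 of 60 and 1 of 12. The cause was not tested.

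Without a filter on low counts, the members called were 4 (Bmal1 KO AL), 1 (RF against AL, Cry WT), 2 (RF against AL, Cry KO), 1 (Cry KO effect between feedings), 3 (Cry WT against Bmal1 WT, AL), 2 (rhythm, Bmal1 KO AL) and, for rhythm differences, 2 and 1 (Bmal1 KO, AL and RF), 3 (Cry KO AL) and 2 (RF against AL, Cry KO). With DESeq2 they were 1 (RF against AL, Bmal1 WT), 3 (RF against AL, Cry KO) and 2 (Cry KO effect between feedings), and with RLE factors, which moved the median of all genes by at most 0.042 log2, 1 and 2 for these feeding comparisons, 3 (Cry WT against Bmal1 WT, AL) and 3 (rhythm, Bmal1 KO RF). With a mean of at least 1 CPM they were 3 (RF against AL, Cry KO) and 1 (Cry KO effect between feedings), with cosine intercepts 1 for the latter and 1 for RF against AL in Cry WT, and with limma-voom 0 (RF against AL, Cry KO). With only the groups compared they were 3 (Cry KO AL), 0 (RF against AL, Cry KO), 0, 5 and 4 (rhythm, Bmal1 KO RF, Cry WT AL and Cry KO RF), and 1 and 0 (rhythm difference, Bmal1 KO AL and Cry KO AL). Without the 7 libraries that stood apart they were 0 (RF against AL, Cry KO), 1 (Cry minus Bmal1, RF), 2 (rhythm, Bmal1 KO RF) and 0 (rhythm difference, Cry KO AL), and without the 3 shallowest libraries 0 (RF against AL, Cry KO) and 3 (rhythm, Bmal1 KO RF). By any difference between times they were 3 and 2 (rhythm, Bmal1 WT RF and Bmal1 KO RF) and 1 (rhythm difference, Cry KO RF).

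Leaving out a series gave 4 to 6 members (Bmal1 KO AL), 3 to 3 (Bmal1 KO RF), 1 to 8 (Cry KO AL), 0 to 1 (Cry KO RF), 0 to 1 and 0 to 4 (RF against AL, Bmal1 WT and Cry KO), 0 to 5 (Cry KO effect between feedings), 4 to 9 and 1 to 3 (Cry minus Bmal1, AL and RF), 1 to 2 (Cry WT against Bmal1 WT, AL), 2 to 3, 2 to 3 and 0 to 3 (rhythm, Bmal1 WT AL, WT RF and KO RF), 1 to 1, 1 to 4 and 0 to 1 (rhythm, Cry WT AL, WT RF and KO RF), and 0 to 0 and 0 to 1 (rhythm difference, Cry KO AL and RF). Of all genes, 4.06% passed for Cry KO AL without its series 2 and 50.4% without its series 1. For RF against AL in Cry KO these shares were 1.3% and 41.2%. They were 0.00501% and 37.6% for the Cry KO effect between feedings, and 14.9% and 50.4% for Cry minus Bmal1 under AL.

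Compared groups share both series numbers only for KO against WT in the Bmal1 line. Of 12 correlations of same-numbered deviations, from −0.063 to 0.25, 4 were over 0.1, so the numbers were not taken to pair the samples. With a replicate block, members called for mean level were 7 and 3 (Bmal1 KO AL and RF), as in the main fit. Rhythmic members were 7 in Bmal1 WT AL (6 in the main fit) and 4 in Bmal1 KO RF (5 in the main fit). They stayed at 7 in Bmal1 WT RF and 0 in Bmal1 KO AL. Atg14 in Bmal1 KO RF lost its rhythm call (0.86 log2, edgeR adjusted p = 0.0501). The shallowest library held 1478963 counts, which limits Tfeb most, at 16 counts.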
